A study of Mus musculus with 35 samples.

Results

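Wnt ligands are secreted, lipid-modified proteins that cells use to signal to their neighbours and to themselves. The members described here are Wnt3, Wnt4, Wnt5a, Wnt5b, Wnt6, Wnt7b, Wnt9a, Wnt10a, Wnt10b and Wnt11. They were taken by gene name from the Wnt family, with earlier results of these data known, and are not an unselected sample of it. They are 10 of the 21350 genes of the expression table, which also holds 9 other Wnt genes, and 7 of the 10 passed the filter on low values and were tested. A gene passed if it reached 10 in 2 or more of the fitted libraries. Wnt7b, Wnt10a and Wnt10b did not pass it. Wnt3 and Wnt6 passed it through the few libraries in which they were high, so a count over the 7 tested genes is a description of those genes and not of the family.

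A Wnt ligand is made ready for release by the acyltransferase Porcn and carried to the cell surface by Wls. It binds a Frizzled receptor together with the co-receptor Lrp5 or Lrp6, which stabilises β-catenin and lets it switch on target genes with TCF and LEF factors, Axin2 among them. Some ligands, Wnt5a and Wnt11 above all, are best known for signalling without β-catenin, through receptors such as Ror2, in cell movement and tissue elongation. In the mouse embryo Wnt3 acts at the start of gastrulation, and BMP4, the growth factor added in some of these cultures, lies upstream of it there.

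Messenger RNA was sequenced from 35 mouse libraries. Cells were infected with 1 of 5 factor combinations, named ODR, OA, OB, ODDR and ODB in the labels. Cells were cultured in iCD1, a reprogramming medium, and some cultures received BMP4 from the change to that medium. ODR, OA and OB were each sampled at days 1, 6 and 14 without BMP4, and ODR and OB also at day 6 with BMP4. The labels do not expand these names or say from which cells the cultures or their replicates came. The series title concerns Kdm2b, a histone demethylase of a variant Polycomb complex, and its design text names reprogramming by Oct4 and Kdm2b. ODDR and ODB were sampled at day 9 with and without BMP4, with 1 library per label, and a mouse embryonic stem cell (mESC) and a mouse embryonic fibroblast (MEF) library have no replicate either. The values are the authors' normalized tag counts per gene, which are not read counts and are not scaled by gene length, so levels are compared between libraries and not between genes.

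Kdm2b was at the table's ceiling of 18690 in the OB libraries of days 1 and 6 and between 202 and 460 in ODR and OA. The library labelled OA day 14 replicate 2 had 721 for Kdm2a, the paralog of Kdm2b, where the other OA libraries were at the ceiling, except OA day 1 replicate 2 at 9294. That library stands apart for several members below. ODR day 6 replicate 3 and ODR with BMP4 day 6 replicate 2 hold identical values at every gene, as do the ODDR and ODB libraries with BMP4 at day 9, so 33 of the 35 libraries are distinct. At day 6 the tests use neither copy, so ODR has 2 untreated libraries and 1 treated with BMP4. The shared day 9 library had 239 for Kdm2b, against 18690 in ODB without BMP4, which goes against its ODB label. The sum of 6 stem cell markers was 14246 in the mESC library and 5 in the MEF library, and the sum of 8 fibroblast markers was 58254 in the MEF library.

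The sequence upstream of the transcription start is shown for Wnt3, Wnt11 and Wnt5b, which lie at the ends of the BMP4 results below: Wnt3 and Wnt11 with the largest rises in OB and ODR, and Wnt5b with lower values in both. Each window is 250 bases long, ends just before a start given by RefSeq (build GRCm38.p6), and is written 5′ to 3′ on the gene's strand. Capitals mark 2 searched motifs on either strand: GGCGCC, a GC-rich element bound by the SMAD proteins of the BMP pathway, and CTTTGAT, the core of TCF and LEF sites, which reads ATCAAAG on the opposite strand. The motifs share no overlap here.
Wnt3 (chr11:103773925-103774174, plus strand): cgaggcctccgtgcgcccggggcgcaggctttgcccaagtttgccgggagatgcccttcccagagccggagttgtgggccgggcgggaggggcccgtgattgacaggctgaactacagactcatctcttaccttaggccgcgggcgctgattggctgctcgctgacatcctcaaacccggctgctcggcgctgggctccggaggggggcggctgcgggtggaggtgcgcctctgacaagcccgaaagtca
Wnt11 (chr7:98834862-98835111, plus strand, first of its starts): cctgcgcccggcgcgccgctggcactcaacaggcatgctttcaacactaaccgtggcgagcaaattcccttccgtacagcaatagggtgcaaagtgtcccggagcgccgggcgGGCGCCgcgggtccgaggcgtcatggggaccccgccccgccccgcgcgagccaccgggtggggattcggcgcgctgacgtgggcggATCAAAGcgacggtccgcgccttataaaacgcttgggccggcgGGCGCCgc
Wnt5b (chr6:119544348-119544597, minus strand, first of its starts): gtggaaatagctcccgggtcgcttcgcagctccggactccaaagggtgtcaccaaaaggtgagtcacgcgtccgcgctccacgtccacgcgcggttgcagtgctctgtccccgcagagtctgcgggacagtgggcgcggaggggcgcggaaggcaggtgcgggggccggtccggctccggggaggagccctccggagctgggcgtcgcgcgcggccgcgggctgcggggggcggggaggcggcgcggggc

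All 3 windows are rich in CpG. They hold 22 CpG in Wnt3, 37 in Wnt11 and 35 in Wnt5b, beside a median of 6 over 32851 such windows of the genome. The windows of Wnt4 and Wnt9a, not shown, hold 44 and 48. The Wnt11 window shown has GGCGCC with its first base 137 bases before the start and again 8 bases before it, and CTTTGAT 51 bases before it. The windows shown for Wnt3 and Wnt5b have neither motif. Of the other windows, those of Wnt4 and Wnt9a have 2 GGCGCC each, the third start of Wnt5b has 1 CTTTGAT 71 bases before it, and those of Wnt6, Wnt10b, the second start of Wnt5b and the second start of Wnt11 have neither. GGCGCC was found upstream of Wnt4, Wnt9a and Wnt11, and a link between the motif and the BMP4 changes was not tested. GGCGCC occurs in 9.59% and CTTTGAT in 3.21% of the 32851 windows, which were not matched for CpG content. A match is a run of letters and not a known binding site.

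Most of the tested members were called with BMP4 in OB cells at day 6, whereas the other tested Wnt genes, given further below, were not. Wnt3, Wnt11, Wnt4 and Wnt6 rose, Wnt5a rose by a small amount, Wnt5b fell, and Wnt9a did not pass the test. That is 5 up and 1 down of the 7 tested, where 32.5% of all 13860 tested genes were called in either direction, 15% up and 17.5% down. Wnt3 and Wnt6 count here among the tested genes through the libraries in which they are high, so the count is not set against all genes as a result. Fold changes are on the scale of log2(value + 1), which understates changes of low values, and are given ± SE with Benjamini-Hochberg adjusted p-values from the limma fit. In bulk RNA, fewer cells of a type and less RNA per cell cannot be told apart.

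**Figure D1:**
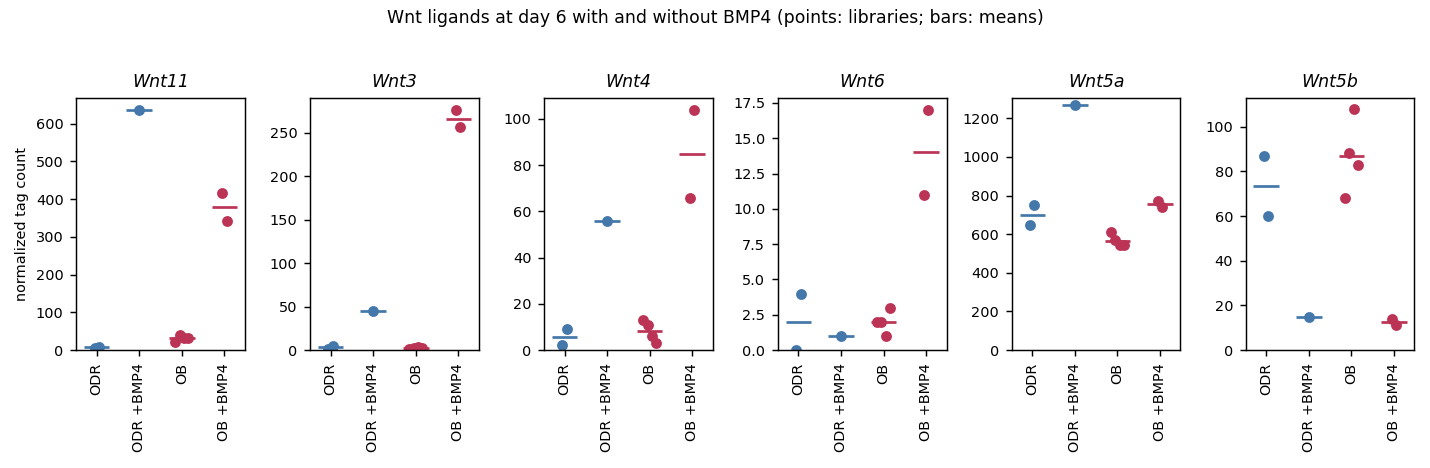
Normalized tag counts (linear axes from 0) of 6 Wnt ligands in ODR and OB cells at day 6 with and without BMP4; points are libraries, bars are means, and the library present under 2 labels is left out. With BMP4, Wnt11, Wnt3 and Wnt4 lie above every library without it and Wnt5b lies below, whereas Wnt6 is higher with BMP4 in OB and is at 1 in ODR with BMP4.

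Wnt3 (chromosome 11, 103774150 to 103817957 of mm10, plus strand), the β-catenin-activating ligand of gastrulation, was 1, 2, 3 and 2 in the OB libraries without BMP4 and 276 and 256 with it. The groups were far apart, and the fold change rests on near-zero untreated libraries, 6.52 ± 0.86 (adjusted p = 2.79e-05, n = 2 and 4). In ODR, Wnt3 was 1 and 5 without BMP4 and 45 with it. The library with BMP4 was again the higher, but the change of 3.73 ± 1.22 did not pass the test (adjusted p = 0.0559, n = 1 and 2). It passed when the apart-standing OA day 14 replicate 2 was left out of the pooled spread (adjusted p = 0.00369).

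Wnt11 (chromosome 7, 98835112 to 98855195, plus strand), a ligand of convergent extension movements and kidney branching, was 22, 41, 32 and 32 in OB without BMP4 and 417 and 342 with it. No library overlapped, and the change was 3.56 ± 0.43 (adjusted p = 1.18e-05). In ODR it was 6 and 9 without BMP4 and 637 with it, a change of 6.25 ± 0.61 (adjusted p = 1.03e-05). Wnt11 was lower in ODR than in OB without BMP4, and its value with BMP4 was higher in the ODR library. The difference between the 2 changes, OB minus ODR, was -2.69 ± 0.75 and did not pass (adjusted p = 0.095). It passed without OA day 14 replicate 2 (adjusted p = 0.0162) and in a fit of only these groups (adjusted p = 0.0332).

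Wnt4 (chromosome 4, 137277489 to 137299726, plus strand), which drives tubule formation in the kidney and female gonad development, was 13, 11, 6 and 3 in OB without BMP4 and 66 and 104 with it. The groups did not overlap, and Wnt4 rose by 3.34 ± 0.58 (adjusted p = 0.0003). In ODR it went from 2 and 9 to 56, a rise of 3.38 ± 0.82 (adjusted p = 0.0125). That call was lost without ODR day 6 replicate 1 (2.51, adjusted p = 0.0948).

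Wnt6 (chromosome 1, 74771892 to 74785322, plus strand), a ligand of ectoderm that shapes epithelial somites, was 2, 2, 1 and 3 in OB without BMP4 and 11 and 17 with it. All its values are low, and the rise of 2.34 ± 0.61 (adjusted p = 0.00674) lost its call without the higher library, OB with BMP4 replicate 2 (2.04, adjusted p = 0.0886). In ODR it was 0 and 4 without and 1 with BMP4, so the libraries overlapped (-0.16 ± 0.86, adjusted p = 0.951). Wnt10a (chromosome 1, 74791516 to 74804179, plus strand), its neighbour on the chromosome and a ligand of teeth and hair, was 2 and 7 in OB with BMP4, 1 in ODR with BMP4 and 0 in every OB day 6 library without it.

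The pair of closely related ligands Wnt5a and Wnt5b moved in opposite directions. Wnt5b (chromosome 6, 119432531 to 119544347, minus strand), a regulator of cartilage and fat cell formation, was 68, 88, 108 and 83 in OB without BMP4 and 14 and 11 with it. It was lower in both treated libraries than in any untreated one and fell (-2.69 ± 0.52, adjusted p = 0.000728). In ODR it was 87 and 60 without BMP4 and 15 with it, a change of -2.2 ± 0.73 that did not pass (adjusted p = 0.0612) and passed without OA day 14 replicate 2 (adjusted p = 0.000287). Wnt5a (chromosome 14, 28504750 to 28527448, plus strand), the ligand of limb and body axis outgrowth, was 612, 570, 544 and 542 in OB without BMP4 and 774 and 742 with it. The groups stood clear of each other and the rise was small, 0.42 ± 0.15 (adjusted p = 0.0392). Its call was lost without each of OB replicates 2, 3 and 4 and either library with BMP4 (adjusted p from 0.0612 to 0.178) and without the filter on low values (adjusted p = 0.0524).

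In ODR, Wnt5a was 646 and 753 without BMP4 and 1269 with it, the highest value of Wnt5a in any library. It rose by 0.86 ± 0.21 (adjusted p = 0.0134), a call that was lost without ODR day 6 replicate 1 (0.75, adjusted p = 0.0755). Wnt9a (chromosome 11, 59306928 to 59333552, plus strand), a ligand of joint formation, overlapped in OB, at 39, 19, 59 and 39 without and 26 and 37 with BMP4 (-0.22 ± 0.44, adjusted p = 0.746). In ODR it was 22 and 25 without and 38 with BMP4 (0.67 ± 0.62, adjusted p = 0.567).

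With BMP4 in ODR, 3 of the 7 tested ligands were called, all upward (Wnt11, Wnt4 and Wnt5a), where 11.5% of all genes were called in either direction, 5.06% up and 6.46% down. This comparison rests on 1 treated library. The library present under both labels had 6 for Wnt11, 2 for Wnt3, 9 for Wnt4, 600 for Wnt5a, 124 for Wnt5b and 45 for Wnt9a. For Wnt11, Wnt3, Wnt4 and Wnt5a these are at or below the higher of the untreated ODR libraries. The keratinocyte marker Trp63 was 144 in the shared library, 148 and 132 untreated and 2 in the other library with BMP4. Of the macrophage markers, Cd68 was 72, against 117 and 81 untreated and 30 with BMP4. Csf1r was 4, against 6 and 3 untreated and 21 with BMP4. Ptprc was 39, against 48 and 0 untreated and 44 with BMP4. Which label is right was not tested for the shared library. When it was kept under both labels, or under the BMP4 label only, limma called 0 members in ODR with BMP4, and for Wnt11 the change was then 3.08 (adjusted p = 0.578) under both labels.

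The test of the difference between the BMP4 effects in OB and in ODR called 0 of the 7 ligands with limma, where 1.26% of all genes were called. At an unadjusted p below 0.05 there were 2, Wnt11 and Wnt6. The difference was 2.50 ± 1.05 for Wnt6 (adjusted p = 0.365) and 2.79 ± 1.49 for Wnt3 (adjusted p = 0.552). It was -0.04 ± 1.01 for Wnt4, -0.44 ± 0.26 for Wnt5a, -0.50 ± 0.90 for Wnt5b and -0.89 ± 0.76 for Wnt9a.

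Markers of other cell types moved with BMP4 too. In OB the sum of 8 fibroblast markers was 35519 to 38079 without and 23767 to 24651 with BMP4, and the sum of 6 epithelial markers was 67 to 114 without and 342 to 876 with it. In ODR the fibroblast sum was 31999 to 40366 without and 24607 with BMP4, and the epithelial sum was 21 to 42 without and 25 with it. The fibroblast markers of ODR did not move together. Thy1 was 2178 with BMP4 against a mean of 1296 without it, and Postn was at the ceiling in both. Col1a1, Col1a2, Col3a1, Twist2, Pdgfra and Pdgfrb were lower with BMP4. In the 1 ODR library with BMP4 the defining epithelial genes Cdh1, Epcam and Cldn6 were at 0. Cdh1 and Cldn6 were also at 0 in the untreated ODR libraries, where Epcam had a mean of 3. The macrophage sum was 282 to 488 in OB without and 279 to 291 with BMP4. Of its markers, Cd68 did not overlap, at 59, 82, 72 and 81 without and 30 and 16 with BMP4, whereas Ptprc, Csf1r and Lyz2 overlapped. The part of the fibroblast and epithelial sums in the ligand changes was not tested.

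At day 9 the labels have 1 library each and allow no test. ODDR without BMP4 and the shared library with BMP4 had 5 and 62 for Wnt3, 72 and 132 for Wnt11, and 15 and 49 for Wnt4. They had 26 and 18 for Wnt5b and 753 and 754 for Wnt5a. The shared library was the higher for Wnt3, Wnt11 and Wnt4 and the lower for Wnt5b. ODB without BMP4 had 11 for Wnt3, 53 for Wnt11, 6 for Wnt4, 49 for Wnt5b and 556 for Wnt5a. Its Wnt6 value of 23 was the highest of Wnt6 in any library.

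**Figure D2:**
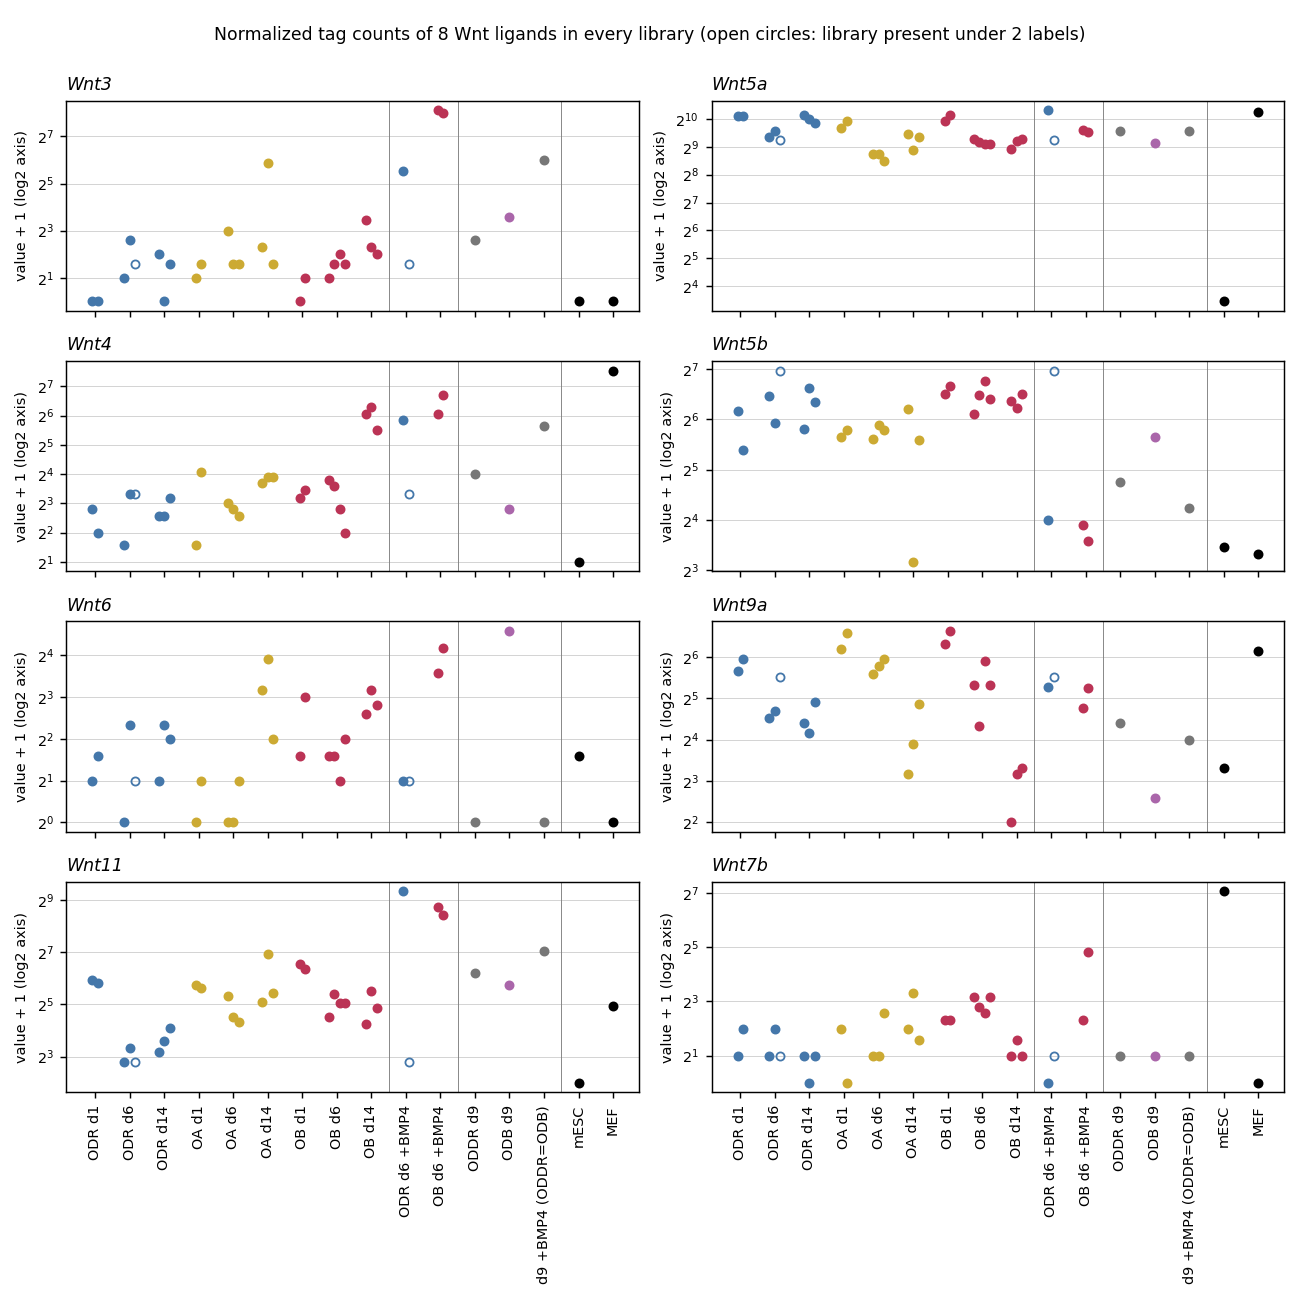
Value + 1 on a log2 axis for 8 Wnt ligands in every library, grouped by factor combination, day and BMP4. Points are single libraries, and open circles mark the ODR day 6 library present under 2 labels. The shared day 9 library with BMP4 is a filled point under a joint label. Wnt5a is high in all reprogramming libraries and in MEF (1196) and at 10 in mESC, whereas Wnt7b is at 132 in mESC and at most 27 elsewhere.

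Without BMP4, the ligands called between OB and ODR were 0 at day 1, 1 at day 6 (Wnt11) and 4 at day 14 (Wnt4 and Wnt11 higher, Wnt5a and Wnt9a lower in OB). At day 1 limma called 0 of the 7 ligands between OB and ODR (0.88% of all genes were called) and 0 between OA and ODR (0.0649%). It also called 0 between OB and OA (1.4%). At an unadjusted p below 0.05 there were 0, 0 and 1, the last being Wnt6. At day 6 a single ligand was called between OB and ODR, where 10.5% of genes were. At day 14 there were 4, 2 up and 2 down, where 54.7% of genes were called, 28% up and 26.7% down, so the share of ligands is near that of all genes. The OA and OB comparisons with ODR share the ODR libraries, and their values are given side by side.

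At day 14, Wnt4 was 5, 5 and 8 in ODR, 12, 14 and 14 in OA and 65, 78 and 44 in OB. The 3 combinations did not overlap, with ODR lowest and OB highest. Wnt4 was 3.17 ± 0.55 higher in OB than in ODR (adjusted p = 8.89e-05) and 2.11 ± 0.55 higher than in OA (adjusted p = 0.00356, n = 3 each). The OA difference from ODR of 1.06 ± 0.55 did not pass (adjusted p = 0.304). Both OB calls held without each library of those groups. In the OB libraries of day 14 the sum of 6 caudal progenitor markers was 930 to 1087, where all 6 were at 0 in ODR, and the fibroblast sum was 18033 to 24001 against 33755 to 43495. Their part in the ligand differences was not tested.

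Wnt9a was 20, 17 and 29 in ODR, 8, 14 and 28 in OA and 3, 8 and 9 in OB. The OB libraries were below every ODR library and overlapped OA. Wnt9a was lower in OB than in ODR (-1.66 ± 0.41, adjusted p = 0.00226), which held without each library. Against OA the difference was -1.15 ± 0.41 (adjusted p = 0.0261), a call that was lost without OA replicate 3 (-0.71, adjusted p = 0.167), without OB replicate 1 (-0.73, adjusted p = 0.169) and in a fit of only these groups (adjusted p = 0.148).

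Wnt5a was 1117, 1020 and 911 in ODR at day 14, 694, 466 and 651 in OA and 488, 595 and 620 in OB. Every OA and OB library was below every ODR library, and OA and OB overlapped. The difference from ODR was -0.84 ± 0.14 in OB (adjusted p = 6.6e-05) and -0.77 ± 0.14 in OA (adjusted p = 0.00404), and OB minus OA was -0.08 ± 0.14 (adjusted p = 0.687). The OA call was lost in a fit of only these groups (adjusted p = 0.255).

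Wnt11 at day 14 was 8, 11 and 16 in ODR, 33, 122 and 42 in OA and 18, 45 and 28 in OB. ODR was lowest, and the OA value of 122 came from the library labelled OA replicate 2. Wnt11 was 2.2 ± 0.41 higher in OA than in ODR (adjusted p = 0.00404), which held without each library and was lost in a fit of only these groups (adjusted p = 0.239). It was 1.26 ± 0.41 higher in OB than in ODR (adjusted p = 0.0135). That call was lost without ODR replicate 1 (1.04, adjusted p = 0.0644) and without OB replicate 2 (0.94, adjusted p = 0.0802). Keeping the shared library under both labels or the BMP4 label gave adjusted p-values from 0.226 to 0.282 for both differences. OB minus OA was -0.94 ± 0.41 (adjusted p = 0.061), and passed without OA replicate 1 (-1.31, adjusted p = 0.0158).

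At day 14, OA differed from ODR in 2 ligands, Wnt11 and Wnt5a, where 5.35% of genes were called. OB differed from OA in 3 ligands, where 51.7% were called: Wnt4, Wnt9a and Wnt5b. Wnt5b was 55, 97 and 80 in ODR, 73, 8 and 47 in OA and 81, 74 and 90 in OB. The lowest value was again that of OA replicate 2, and without it the OB minus OA difference of 1.38 ± 0.49 (adjusted p = 0.025) was 0.47 (adjusted p = 0.15). The call was also lost without OB replicate 1 (adjusted p = 0.0568) or 3 (adjusted p = 0.0643). Between OB and ODR, Wnt5b overlapped (0.11 ± 0.49, adjusted p = 0.869).

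Wnt3 at day 14 was 3, 0 and 2 in ODR, 4, 57 and 2 in OA and 10, 4 and 3 in OB. Apart from OA replicate 2, all these values were at or below 10. Its difference from ODR was 1.40 ± 0.81 in OB (adjusted p = 0.156, and 0.0354 without OA replicate 2) and 2.06 ± 0.81 in OA (adjusted p = 0.164). Wnt6 was 1, 4 and 3 in ODR, 8, 14 and 3 in OA and 5, 8 and 6 in OB. OB was above ODR in all libraries by a small amount (1.08 ± 0.57, adjusted p = 0.12).

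**Figure D3:**
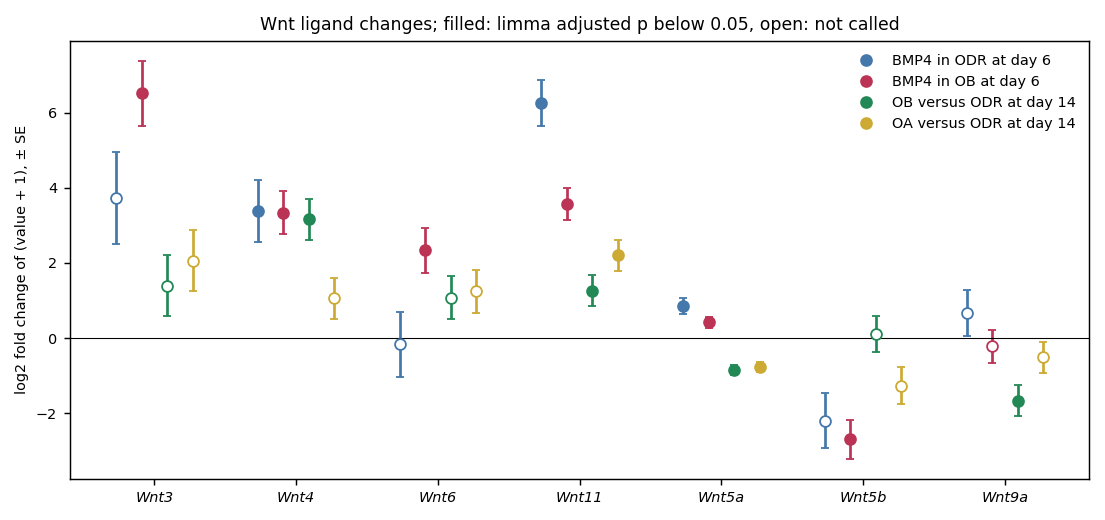
Log2 fold change of (value + 1) with its SE for the 7 tested Wnt ligands in 4 comparisons; filled points have a limma adjusted p below 0.05 and open points do not. Wnt3 changes most with BMP4 in OB (6.52) and Wnt11 with BMP4 in ODR (6.25), Wnt5b is below 0 in both BMP4 comparisons, and Wnt5a is above 0 with BMP4 and below 0 in OA and OB against ODR at day 14.

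At day 6 the called ligands were Wnt11 and Wnt5a. Wnt11 was 6 and 9 in ODR, 39, 22 and 19 in OA and 22, 41, 32 and 32 in OB. ODR was lowest, and Wnt11 was 1.94 ± 0.43 higher in OB (adjusted p = 0.00735). The call was lost without ODR replicate 1 (1.68, adjusted p = 0.11) and with the shared library kept under both labels (adjusted p = 0.144). In OA the difference from ODR was 1.66 ± 0.45 and did not pass (adjusted p = 0.069).

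Wnt5a at day 6 was 646 and 753 in ODR, 430, 426 and 354 in OA and 612, 570, 544 and 542 in OB. No group overlapped, with OA lowest and ODR highest. OA was lower than ODR (-0.79 ± 0.16, adjusted p = 0.0124), the 1 ligand called where 2.22% of genes were. That call was lost without ODR replicate 2 (-0.68, adjusted p = 0.202) and without OA replicate 3 (-0.70, adjusted p = 0.0552). OB was higher than OA by 0.49 ± 0.13 (adjusted p = 0.0285), again the 1 ligand called, where 7.28% of genes were. This was lost without any of 5 of the 7 libraries (adjusted p from 0.0525 to 0.148). OB minus ODR was -0.30 ± 0.15 (adjusted p = 0.238).

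From day 1 to day 6, Wnt5a fell in all 3 combinations. It went from 1108 and 1098 to 646 and 753 in ODR, from 809 and 969 to 430, 426 and 354 in OA, and from 974 and 1117 to 612, 570, 544 and 542 in OB. All day 6 libraries were below the day 1 libraries of their combination. The changes were -0.66 ± 0.17 (adjusted p = 0.00931), -1.14 ± 0.16 (adjusted p = 3.06e-05) and -0.88 ± 0.15 (adjusted p = 0.000222). The ODR call was lost without ODR day 1 replicate 2 (adjusted p = 0.0518) or day 6 replicate 1 (adjusted p = 0.0887).

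From day 6 to day 14 Wnt5a rose in OA (0.57 ± 0.14, adjusted p = 0.0213). That call was lost without OA day 6 replicate 3 (adjusted p = 0.0969) or OA day 14 replicate 1 (adjusted p = 0.0749). In ODR the change was 0.54 ± 0.16 (adjusted p = 0.0645), which passed without OA day 14 replicate 2 (adjusted p = 0.0157). In OB it was 0.00 ± 0.13. By day 14 the ODR libraries, at 911 to 1117, spanned their day 1 values, whereas the OB libraries, at 488 to 620, overlapped those of day 6. Over days 1 to 14 the OB change minus the ODR change was -0.76 ± 0.22 (adjusted p = 0.0135), a call that was lost without OB day 1 replicate 2 (-0.66, adjusted p = 0.064) and with the shared library under both labels (adjusted p = 0.0687).

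Wnt11 fell from 60 and 55 at day 1 to 6 and 9 at day 6 in ODR. Every day 6 library was lower (-2.80 ± 0.50, adjusted p = 0.000503). In OB it fell from 92 and 81 to 22, 41, 32 and 32 (-1.45 ± 0.43, adjusted p = 0.0148), a call that was lost without OB day 1 replicate 1 (adjusted p = 0.098) or 2 (adjusted p = 0.0676) and with the shared library under both labels (adjusted p = 0.282). In OA, Wnt11 went from 52 and 48 to 39, 22 and 19, which did not pass (-0.95 ± 0.45, adjusted p = 0.116). Over all days and combinations without BMP4 the order of the Wnt11 group means ran from 86.5 ± 7.78 (SD, n = 2) in OB at day 1 to 7.50 ± 2.12 (n = 2) in ODR at day 6. At the top of this order OA at day 14 (33, 122 and 42) spanned OB, ODR and OA at day 1. At its lower end the neighbours ODR at day 6 and ODR at day 14 (11.7 ± 4.04, n = 3) overlapped, as did OA at day 6 (26.7 ± 10.8), OB at day 14 (30.3 ± 13.7) and OB at day 6 (31.8 ± 7.76).

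Wnt9a declined in OB at both steps. It was 78 and 98 at day 1, 39, 19, 59 and 39 at day 6 and 3, 8 and 9 at day 14. The 3 days did not overlap. The change was -1.25 ± 0.44 from day 1 to day 6 (adjusted p = 0.034) and -2.39 ± 0.38 from day 6 to day 14 (adjusted p = 4.62e-05). The first of these was lost without OB day 1 replicate 1 (adjusted p = 0.0883) or 2 (adjusted p = 0.202) or OB day 6 replicate 2 (adjusted p = 0.0933). The second held without each library.

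In OA, Wnt9a was 72 and 94 at day 1, 47, 54 and 61 at day 6 and 8, 14 and 28 at day 14. Each day lay below the one before. The later fall passed (-1.80 ± 0.41, adjusted p = 0.0132), and lost its call without OA day 6 replicate 3 (adjusted p = 0.0531) or OA day 14 replicate 1 (adjusted p = 0.0539). In ODR, Wnt9a went from 50 and 61 to 22 and 25 (-1.20 ± 0.50, adjusted p = 0.0907) and then 20, 17 and 29. From day 1 to day 14 the OB change minus the ODR change was -2.31 ± 0.65 for Wnt9a (adjusted p = 0.0104), which held without each library.

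Wnt4 rose in OB between days 6 and 14. It was 8 and 10 at day 1, 13, 11, 6 and 3 at day 6 and 65, 78 and 44 at day 14, a change of 2.90 ± 0.51 over the second step (adjusted p = 0.000117). The day 14 libraries were all above the earlier ones. The OB change minus the ODR change from day 1 to day 14 was 2.26 ± 0.87 and did not pass (adjusted p = 0.0515), and it passed with a pseudocount of 5 (2.02, adjusted p = 0.00875). Wnt6 rose in OB from 2, 2, 1 and 3 at day 6 to 5, 8 and 6 at day 14 (1.31 ± 0.54, adjusted p = 0.0459), a call lost without any of 6 of the 7 libraries (adjusted p from 0.0669 to 0.133). In OA it rose from 0, 0 and 1 to 8, 14 and 3 (2.69 ± 0.57, adjusted p = 0.00848).

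The counts over time stand beside the share of all genes called. From day 1 to day 6, 2 ligands were called in ODR (25.1% of genes), 1 in OA (34.6%) and 3 in OB (33.8%). From day 6 to day 14, limma called 0 in ODR (3.95%), where Wnt5a alone had an unadjusted p below 0.05, 3 in OA (8.14%) and 3 in OB (55%). In the test of the OB change against the ODR change it called 2 (34.5%). In fits of only the groups compared, the OA calls between days 6 and 14 were 0.

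Wnt7b (chromosome 15, 85535437 to 85582473, minus strand), a ligand of the placenta and lung, was 132 in mESC and 0 in MEF. In the reprogramming libraries it was at most 9, except 27 in OB with BMP4 replicate 2, whose partner library had 4. Wnt10b (chromosome 15, 98770712 to 98778150, minus strand), a ligand of bone and mammary gland, was 16 in MEF and at most 3 elsewhere in the tested libraries, and Wnt10a was 18 in MEF and at most 7 in the tested libraries. Wnt4 was 185 and Wnt9a was 70 in MEF, against 1 and 9 in mESC. Wnt5a was 1196 in MEF and 10 in mESC. Wnt3 was 0 in both, and Wnt11 was 30 in MEF and 3 in mESC.

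The genes whose pattern was most like a ligand's were ranked by Pearson correlation of log2(value + 1) over the 33 distinct libraries, for ligands that reach a value of 100. For Wnt3 they were Stk32a (r = 0.92), Dlx3 (r = 0.91) and Hrh3 (r = 0.90). For Wnt5a they were Zeb2 (r = 0.96), Elk3 (r = 0.93) and Actg2 (r = 0.92). For Wnt11 they were Cdc42se1 (r = 0.85), Nos1ap (r = 0.83) and St7 (r = 0.83), for Wnt4 Lrrc17 (r = 0.87), and for Wnt5b Sorcs3 (r = 0.87). The libraries share treatments and days, so these are descriptions of a common pattern. Among the ligands, Wnt3 was most like Wnt11 (r = 0.66), and Wnt5a and Wnt7b ran opposite (r = -0.70). Wnt7b did not pass the filter and was high only in the mESC library, where Wnt5a was low. How far their correlation rests on that library was not tested.

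The rest of the pathway was counted from lists of its parts. Each count is over tested genes, and genes such as Sost passed the filter through the libraries in which they are high, so the counts are descriptions. With BMP4 in OB, where 32.5% of all genes were called (15% up and 17.5% down), 10 of 18 receptors and co-receptors rose and 4 fell (median log2 fold change 1.13, against -0.02 over all genes). Fzd7, a Frizzled receptor, was 79, 66, 82 and 70 without and 484 and 502 with BMP4, and rose by 2.72 ± 0.31 (adjusted p = 7.21e-06). The co-receptor Lrp5 rose by 2.01 ± 0.19 (adjusted p = 1.33e-06), and Ror2, a receptor of Wnt5a, by 1.42 ± 0.17 (adjusted p = 1.06e-05). Fzd8 (-2.16 ± 0.29) and Fzd2 (-1.11 ± 0.14) were lower. The second co-receptor, Lrp6, had a change of 0.09 ± 0.14 and did not pass (adjusted p = 0.665).

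Antagonists of the pathway moved in both directions with BMP4. In OB, 5 of 11 tested antagonists rose and 3 fell, where 15% of all genes rose and 17.5% fell. The list of secreted antagonists also holds Kremen1, a membrane protein that is not secreted. Sost, which blocks Lrp5 and Lrp6, was 0, 0, 1 and 0 without BMP4 and 220 and 174 with it (7.37 ± 0.67, adjusted p = 8.41e-07). Wif1, which binds Wnt ligands directly, rose by 5.52 ± 0.62 (adjusted p = 5.88e-06) and Dkk1, another Lrp antagonist, by 5.28 ± 0.63 (adjusted p = 1.01e-05). Dkk3 (-2.28 ± 0.23) and Sfrp4, a soluble Frizzled-related protein (-3.25 ± 0.42), were lower. Notum, an enzyme that strips the lipid from Wnt proteins, was 6, 4, 5 and 5 without and 278 and 263 with BMP4 (5.51 ± 0.59, adjusted p = 3.86e-06).

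The ligand-releasing genes did not pass the test in OB with BMP4. The log2 difference was -0.32 ± 0.32 for Porcn (adjusted p = 0.487) and 0.32 ± 0.24 for Wls (adjusted p = 0.329). The list of the R-spondin arm holds the R-spondins, which protect Frizzled receptors from removal, and their receptors. It also holds the ligases Rnf43 and Znrf3, which remove Frizzled receptors, so its genes do not act in 1 direction. Of this list, 5 of 9 rose and 2 fell, beside the same 15% and 17.5%. The receptor-removing ligase Znrf3 rose by 2.05 ± 0.33 and the R-spondin receptor Lgr4 was lower (-1.17 ± 0.15). Of 16 intracellular transducers 3 rose and 1 fell, where 32.5% of all genes were called in either direction. The transcription factor Tcf7 rose by 2.91 ± 0.50 (adjusted p = 0.000291). The 4 other tested Wnt genes on the lists, Wnt2, Wnt2b, Wnt8a and Wnt16, gave 0 calls with limma in either BMP4 comparison. Not every Wnt gene of the table was listed.

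Of 15 tested β-catenin target genes, 6 rose and 4 fell in OB with BMP4, where 15% of all genes rose and 17.5% fell. The feedback inhibitors Nkd1 and Apcdd1 rose by 4.29 ± 0.76 (adjusted p = 0.000345) and 3.07 ± 0.49 (adjusted p = 0.000144). Lef1, the TCF partner factor, was 53, 17, 13 and 21 without and 293 and 200 with BMP4 (3.38 ± 0.81, adjusted p = 0.004). Axin2, the most general target, did not pass, at 234, 165, 164 and 134 without and 199 and 220 with BMP4 (adjusted p = 0.437). Dact1, an inhibitor of the pathway, was lower (-1.98 ± 0.34), and the caudal factor Cdx4 was 10.0 ± 3.16 (n = 4) without BMP4 and listed at 0 with it.

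ODR with BMP4 had fewer called pathway genes, from its 1 treated library. Receptors had 4 up and 3 down of 18, antagonists 2 up and 0 down of 11, and target genes 3 up and 2 down of 15, where 5.06% of all genes were called up and 6.46% down. The antagonists are few, and their count rests on Sost and Dkk1. Fzd7 was 50 and 61 without and 503 with BMP4 (3.16 ± 0.44, adjusted p = 0.000283), Notum 0 and 4 against 120, and Sost 0 and 0 against 383. Lef1 was 5 and 11 without and 174 with BMP4 (adjusted p = 0.0197), lost without ODR replicate 1 (3.87, adjusted p = 0.0929). Axin2 was 122 and 160 without and 108 with BMP4 (adjusted p = 0.617). With the shared library kept under both labels, none of Fzd7, Notum, Sost and Lef1 kept its call in ODR (adjusted p = 0.578 for each).

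**Figure D4:**
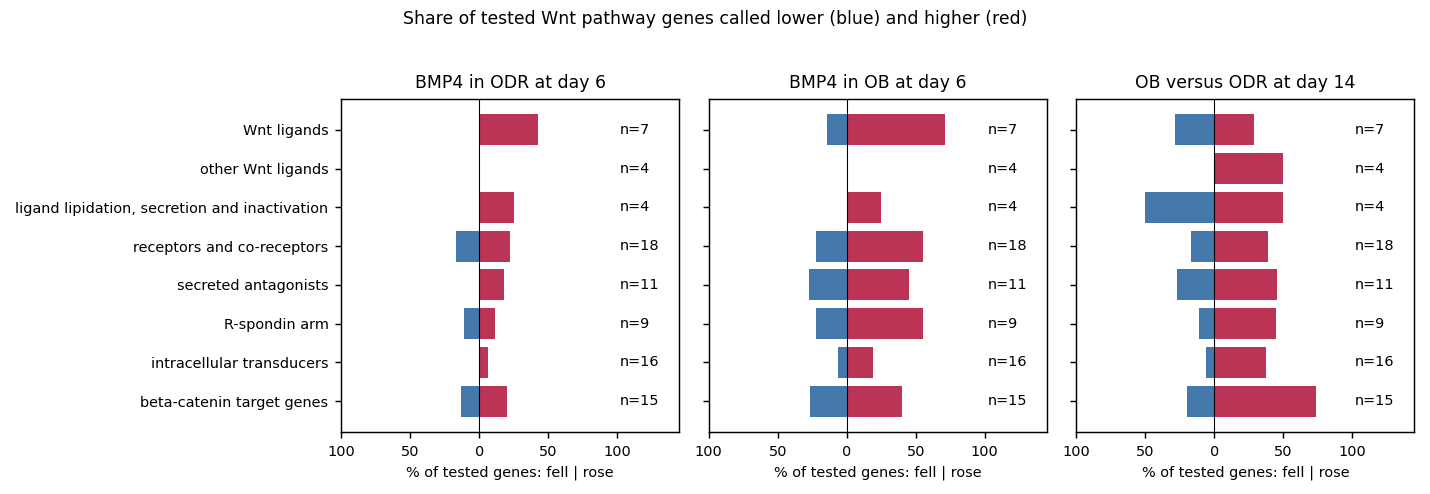
Percent of the tested genes of each Wnt pathway list that fell (left, blue) or rose (right, red) at a limma adjusted p below 0.05, for BMP4 in ODR, BMP4 in OB and OB against ODR at day 14; n is the number of tested genes of each list. Of the 15 β-catenin target genes, 11 rose in OB against ODR at day 14, where 28% of all tested genes rose. With BMP4 in OB 6 rose, where 15% of all tested genes did. Other genes of the list fell in both comparisons. Cdx1, Cdx2, Cdx4 and T passed the filter mainly through the OB libraries of day 14, so these counts are descriptions.

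At day 14, of the 15 tested target genes of β-catenin 11 were higher and 3 lower in OB than in ODR, where 28% of all genes were called up and 26.7% down. Cdx1, Cdx2, Cdx4 and T, at 0 in ODR at day 14, passed the filter mainly through the OB libraries of day 14, in which they are high. In OA at day 14 Cdx2 was 23, 2 and 2 and T was 24, 0 and 1. The count of target genes is therefore a description and not a result about the list. Axin2 was 236, 172 and 238 in ODR and 812, 740 and 644 in OB (1.77 ± 0.25, adjusted p = 1.2e-05). Lef1 was 28, 22 and 36 in ODR and 494, 283 and 204 in OB (3.40 ± 0.77, adjusted p = 0.00107). The groups did not overlap for either gene. Cdx2 and Cdx4, caudal transcription factors in that list, were 187 ± 18 and 116 ± 5.29 in OB and listed at 0 in ODR, and they are also among the caudal progenitor markers.

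Around the ligands at day 14, 7 of 18 receptors rose and 3 fell, a share close to the 54.7% of all genes called. Fzd10 was 4, 4 and 4 in ODR and 820, 960 and 776 in OB (7.41 ± 0.62, adjusted p = 4.24e-08), and Fzd7 rose by 1.71 ± 0.29 (adjusted p = 8.4e-05). Of the 4 other tested Wnt genes on the lists 2 rose. Wnt8a, a ligand of the posterior embryo, was 76, 94 and 38 in OB and listed at 0 in ODR. Wnt16 rose by 2.36 ± 0.42 (adjusted p = 0.00012). The ligand carrier Wls was 1942, 2222 and 2545 in ODR and 783, 1368 and 1260 in OB, a difference of -1.01 ± 0.23 (adjusted p = 0.00104). Porcn was higher (0.87 ± 0.31, adjusted p = 0.0219), a call lost without any of 4 of the 6 libraries (adjusted p from 0.0596 to 0.0783). Rspo1, an R-spondin, was lower by -5.29 ± 0.75 on the log2 scale (adjusted p = 1.11e-05), and Tcf7 was higher by 4.31 ± 0.48 (adjusted p = 7.41e-07).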

How the data were processed

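The submitters' processing notes name the tools bcl2fastq, RSEM and Bowtie2 2.2.5 and the genome build mm10, and the labels' protocols give poly-A enrichment. The deposited values are a normalized tag count score per gene, in whole numbers. For the normalization, a method is not given in the sources used. Column totals run from 4255921 to 4398785, with a common ceiling of 18690, so sequencing depth is unknown and counting error cannot be given. A total of 0 columns were left unused.

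On the log2(value + 1) scale, genes at 10 or more in at least 2 libraries (13860 genes) were fitted with limma 3.58.1 in R 4.3.3. The model has 27 libraries, 11 group means and 16 residual degrees of freedom, and tests are two-sided with Benjamini-Hochberg adjustment over all genes at 0.05. ODR with BMP4, a single library, takes its spread from the other groups. Nothing says that replicates came from separate cultures, so the p-values reflect differences between libraries that may be technical only. There were 19 comparisons. The steps were tested on simulated data.

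The members and gene lists were chosen with earlier results of these data known. All 10 members are named. From each pathway list the rule allows up to 3 called genes in each direction by adjusted p, and Lrp6, Fzd7, Porcn, Wls, Axin2 and Lef1 whatever their result. Of the rule's pathway genes the text names a part, mostly those whose call held without each library. Gene positions are from GENCODE for mm10, and upstream sequences from RefSeq (GRCm38.p6), with 7 of the 10 members matched. Motifs were searched on both strands. Alternatives were another pseudocount (5), other filters (none, or 20 in 3 libraries), median-ratio scaling, limma with trend and robust options, fits of only the groups compared, the shared library under either or both labels, a replicate block, and each library left out. Leaving out OA day 14 replicate 2 from every fit was chosen after seeing the data.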

Additional observations from a re-analysis of the deposited data

Results flagged for a closer look

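The course from day 1 to day 14 differed between OB and ODR for Wnt5a and Wnt9a in a test of the difference itself. The OB change minus the ODR change was -0.76 ± 0.22 for Wnt5a (adjusted p = 0.0135) and -2.31 ± 0.65 for Wnt9a (adjusted p = 0.0104), on the log2(value + 1) scale, with limma. The Wnt5a call was lost without OB day 1 replicate 2 (-0.66, adjusted p = 0.064) and with the shared day 6 library kept under both labels (adjusted p = 0.0687) or under the BMP4 label (adjusted p = 0.0738). In OB, Wnt5a was 974 and 1117 at day 1 and 488, 595 and 620 at day 14, whereas in ODR it was 1108 and 1098 and then 1117, 1020 and 911. Wnt9a went from 78 and 98 to 3, 8 and 9 in OB and from 50 and 61 to 20, 17 and 29 in ODR. Of the 9 members with a testable spread in the 4 OB libraries of day 6, 0 had a library far from the others.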

How the results depend on the processing

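Median-ratio scaling kept every named call and moved the median of all genes by at most 0.052 in size. The columns already had near-equal totals and a common ceiling, so this scaling could move little and does not test the submitters' normalization. The number of ligands called changed by more than 1.5 times as follows, and the cause was not tested. In fits of only the groups compared it was 0 for OA versus ODR at day 14, 2 and 1 for OB versus OA at days 6 and 14, 0 for BMP4 in ODR, 1 for the BMP4 difference and 0 for OA from day 6 to 14. With the shared library under both labels it was 0 for OB versus ODR, OA versus ODR and OB versus OA at day 6 and for BMP4 in ODR, and 1 for OA versus ODR at day 14 and for the OB change minus the ODR change. Under the second label these counts were the same, and ODR from day 1 to 6 gave 0. Under the first label they were 2 for OA versus ODR at day 6, 5 for BMP4 in ODR and 1 for ODR from day 6 to 14, as with trend and robust options (2, 5 and 1). A pseudocount of 5 gave 5 for BMP4 in ODR.

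The replicate numbers did not deviate together throughout (correlations of same-numbered libraries from -0.163 to 0.316), and the labels do not say that they mark a batch. With the replicate block, the OB versus OA count at day 6 was 0 (Wnt5a 0.52, adjusted p = 0.054), Wnt5a did not pass with BMP4 in OB (0.38, adjusted p = 0.11), and Wnt9a in ODR from day 1 to 6 (adjusted p = 0.0255) and the Wnt4 difference between the OB and ODR changes (adjusted p = 0.0343) passed.

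Without each library in turn the counts for days 1, 6 and 14 ran from 0 to 0, 0 to 1 and 3 to 5 in OB versus ODR, 0 to 0, 0 to 2 and 2 to 3 in OA versus ODR, and 0 to 0, 0 to 1 and 1 to 4 in OB versus OA. They ran from 1 to 5 for BMP4 in ODR, 4 to 6 in OB and 0 to 1 for their difference. Over time they were 1 to 2 and 0 to 1 in ODR, 1 to 2 and 1 to 3 in OA, 1 to 3 and 2 to 3 in OB, and 1 to 3 for the OB change minus the ODR change.

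Directions turned only for results that had not passed. For BMP4 in OB, Wnt9a was 0.087 with the replicate block and ran from -0.52 to 0.0298 without a library (above 0 without OB replicate 3 or OB with BMP4 replicate 1). For BMP4 in ODR, Wnt6 was 0.27 with the block and -1.32 and 1.00 without ODR replicate 1 or 2. For the BMP4 difference, under both labels and the second label, Wnt11 was 0.48 and 0.57, Wnt5a 0.0245 and 0.10, and Wnt4 1.51 and 1.22. Wnt4 was also 0.25 under the first label, 0.18 with a pseudocount of 5 and -0.91 to 0.83 without a library. At day 14, OB minus ODR ran from -0.11 (without ODR replicate 1) to 0.29 for Wnt5b, and OB minus OA from -0.25 to 0.0358 for Wnt5a, above 0 without OA or OB replicate 1. Depth is unknown, and values under 10 (Wnt3, Wnt6, Wnt7b, Wnt10a, Wnt10b in most libraries) limit what can be told.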
